A study of Mus musculus with 16 samples.

Results

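The integrated stress response was examined through 10 genes: Atf4, Ddit3, Trib3, Asns, Fgf21, Gdf15, Psat1, Phgdh, Mthfd2 and Atf5. They were listed by symbol as known parts of the pathway, with earlier results of these data known, and all 10 were found among the 35682 genes of the deposited count table. RNA came from ventricular myocytes of 16 mice, 8 B3AR-Tg and 8 wild-type (WT) animals. Every animal had been operated on 9 weeks before collection, by transverse aortic constriction (TAC). In it a suture narrows the aortic arch and the left ventricle pumps against a higher pressure. The controls thus had the same operation, and no unoperated heart is among the groups. The labels give no pressure value, so whether the overload was equal is not known. The line is named for the beta-3 adrenergic receptor; its promoter, the species of the transgene, the strain, sex and age were not given in the sources used here. Myocytes were freed by Langendorff perfusion of the heart and held on plates for 1 hour before RNA extraction.

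The integrated stress response is a shared reaction of cells to stress of the endoplasmic reticulum, shortage of amino acids, lack of haem, double-stranded RNA and failing mitochondria. Each stress activates a kinase that phosphorylates the translation factor eIF2, which slows protein synthesis in general and favours translation of the messenger for the transcription factor ATF4. ATF4 then raises genes for amino acid and one-carbon synthesis, the further transcription factors CHOP (encoded by Ddit3) and ATF5, and the secreted factors FGF21 and GDF15. Because ATF4 is controlled largely by translation, the level of its messenger does not measure the amount of ATF4 protein.

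Many ATF4 targets carry a composite C/EBP-ATF element whose core reads TGATGNAA. RefSeq promoter windows (GRCm38.p6, 300 bases each, 250 before and 50 after a start site) were found for all 10 genes, 13 windows in total. The core, searched on both strands, was present in 3 of these 13 windows, against 3.97% of all 32851 windows. The stretches that hold it are printed because they belong to Trib3, Asns and Fgf21, which are all among the genes with few counts here. Capitals mark the core, which lies on the printed strand in Asns and on the opposite strand in Fgf21 and Trib3.
Asns, chr6:7693210-7693252, minus strand: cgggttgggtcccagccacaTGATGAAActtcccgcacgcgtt
Fgf21, chr7:45615602-45615649, minus strand: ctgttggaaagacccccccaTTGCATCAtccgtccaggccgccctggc
Trib3, chr2:152344039-152344066, minus strand: agcagcagattagctcaggtTTACATCA
The core began at position −23 from the start site in Asns, at −139 in Fgf21 and at 14 in Trib3. The endoplasmic reticulum stress element (ERSE), also searched on both strands, was in 0 of the 13 windows and in 0.119% of all windows. Letters outside a window were not searched, and a match is not evidence of binding. The 10 genes were listed as known parts of a pathway whose targets often carry the core. The shares of windows are therefore a description and not a test.

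Libraries held 5985335 to 14365864 counts. Mouse Adrb3 had 0 to 4 counts in WT and 0 to 3 in B3AR-Tg libraries, so it does not check the labels, whereas Adgrb3 had 0 to 3 counts in every WT library and 247 to 723 in every B3AR-Tg library. Adgrb3 encodes an adhesion receptor of the brain, a gene other than the beta-3 adrenergic receptor, and the source of its counts was not tested. Cardiac myocyte markers summed to 39982 to 51580 CPM in WT, against 46848 to 55467 CPM in B3AR-Tg (CPM are counts scaled to a common library size, here with TMM factors). Markers of fibroblasts summed to 73.3 to 181 CPM in WT, against 26.8 to 101 CPM in B3AR-Tg, and 7 of 7 tested fibroblast markers had a lower estimate in B3AR-Tg, 4 of them past the threshold. Endothelial markers summed to 121 to 170 CPM in WT, against 53.8 to 210 CPM in B3AR-Tg. All 8 were tested and had a lower estimate, 2 of them past the threshold. Over all tested genes 2.88% were called lower. Leukocyte markers summed to 4.27 to 15.4 CPM in WT, against 0.795 to 6.38 CPM in B3AR-Tg. The T cell marker Cd3e was at 0 in all animals. Mural markers summed to 90.6 to 165 CPM in WT, against 48.6 to 145 CPM in B3AR-Tg. The estimate was lower for 2 of 2 tested leukocyte and 6 of 7 tested mural markers, and 0 of these passed. In such bulk samples fewer cells of a type and less RNA per cell cannot be told apart.

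Of the 10 stress-response genes, Gdf15 alone differed between genotypes, and it was lower in B3AR-Tg. Atf4, Ddit3 and Atf5 were measured in every animal and did not pass the test, and the other 6 genes had too few counts for it. The test was edgeR's quasi-likelihood F test over 10945 genes with Benjamini-Hochberg adjustment and a threshold of 0.05, which called 4.91% of all tested genes, 2.03% higher and 2.88% lower in B3AR-Tg. An unadjusted p under 0.05 was reached by 19.3% of all tested genes. Thus 1 of the 4 tested genes was called. The median log2 fold change was 0.03 over these 4 genes and 0.01 over all tested genes. The 2 groups overlapped for each of the 10 genes, while complete separation was seen for 0.201% of tested genes with B3AR-Tg above WT and for 0.247% with B3AR-Tg below.

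The genes spanned a wide range of abundance. Per kilobase of merged exons, the WT level was 27.98 ± 6.25 CPM for Atf4, 3.75 ± 0.636 for Ddit3, 2.32 ± 1.48 for Gdf15 and 2.16 ± 0.390 for Atf5 (means ± SD, n = 8). The enzymes Mthfd2 (0.307 ± 0.204), Asns (0.250 ± 0.185) and Psat1 (0.231 ± 0.211) followed on the same scale. Trib3 (0.0880 ± 0.0527), Phgdh (0.0541 ± 0.0451) and Fgf21 (0.0112 ± 0.0316) were lowest. Atf4 stood clear of the next gene. The spread (mean ± SD) of Gdf15 met those of Ddit3 and Atf5, whereas Ddit3 and Atf5 did not meet each other. Mthfd2, Asns and Psat1 lay within each other's spread, as did Trib3 and Phgdh.

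**Figure D1:**
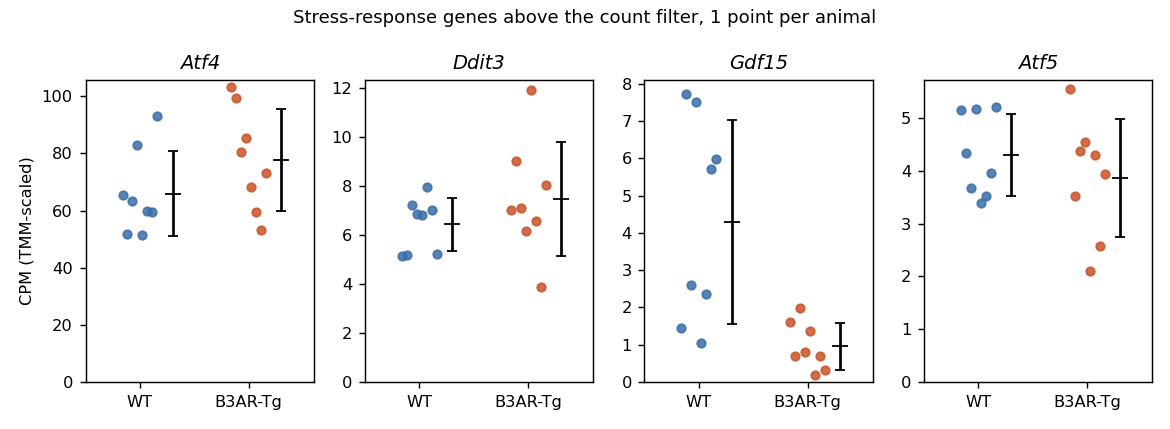
Level of Atf4, Ddit3, Gdf15 and Atf5 in CPM (TMM-scaled, linear axes from 0) for each of 8 WT and 8 B3AR-Tg animals; bars show the mean ± SD. Gdf15 lay between 1.05 and 7.73 CPM in WT and between 0.196 and 1.98 CPM in B3AR-Tg, and the groups overlapped widely for the other 3 genes.

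Atf4 encodes the transcription factor at the centre of the response. It was at 51.5 to 93.1 CPM in WT (median 61.6, 394 to 948 raw counts) and at 53.3 to 103 CPM in B3AR-Tg (median 76.9, 525 to 1542 raw counts). The highest WT values were those of replicates 8 (93.1 CPM) and 4 (82.9 CPM), and 2 B3AR-Tg animals lay above every WT animal. The log2 fold change was 0.24 with a standard error of 0.14 and a 95% interval of −0.06 to 0.53 (edgeR adjusted p = 0.389). The WT and B3AR-Tg ranges overlapped over most of their length.

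Ddit3 encodes CHOP, a factor that acts with ATF4 and is linked to cell death when stress persists. WT animals held 43 to 77 counts, or 5.16 to 7.94 CPM with a median of 6.84, and B3AR-Tg animals held 38 to 130 counts, or 3.89 to 11.9 CPM with a median of 7.06. The B3AR-Tg group held both the lowest and the highest animal, replicates 7 and 5. The log2 fold change was 0.22 (standard error 0.18, 95% interval −0.15 to 0.60, edgeR adjusted p = 0.522). With the load marker score as a covariate the sign turned, to −0.40 (edgeR adjusted p = 0.720), and with the other-cell score to −0.19 (adjusted p = 0.773). Ddit3 overlaps Mars1, the methionyl-tRNA synthetase gene, on the opposite strand; the libraries were stranded, but the strand setting of the counting was not given in the sources used here. A second row for Ddit3, under another Ensembl identifier, held 0 counts.

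Atf5 encodes a relative of ATF4 that has been tied to mitochondrial stress. It lay between 3.40 and 5.21 CPM in WT (median 4.14, 24 to 58 counts) and between 2.11 and 5.56 CPM in B3AR-Tg (median 4.12, 23 to 83 counts). The medians were close, and the B3AR-Tg animals spread both above and below the WT range. The log2 fold change was −0.17 (standard error 0.19, 95% interval −0.55 to 0.22, edgeR adjusted p = 0.676). With the load marker score as a covariate it was 0.00296 (adjusted p = 1.00). Atf5 overlaps Nup62 and Il4i1 on the opposite strand.

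Trib3 encodes a pseudokinase that is induced by CHOP and ATF4 and feeds back on them. It had 0 to 4 counts in WT (median 2, 14 in all) and 1 to 6 in B3AR-Tg (median 1, 18 in all). Counts were at or under the floor of 3 in 7 WT and 6 B3AR-Tg libraries. The ratio of the summed counts, B3AR-Tg over WT after scaling, was 1.04, with a 95% exact binomial interval of 0.487 to 2.25 that covers counting error only. An exact permutation test of the mean CPM over all 12870 splits of the animals gave p = 0.960 (two-sided, n = 8 per group; smallest possible p 0.000155). For each of the 6 genes below the filter the value adjusted over these 6 tests was 0.960.

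Gdf15 encodes a secreted stress factor of the TGF-beta superfamily that acts on appetite through a receptor in the hindbrain and is known as a blood marker of heart disease. WT replicates 1 to 8 held 12, 91, 22, 84, 8, 16, 39 and 61 counts, and B3AR-Tg replicates 1 to 8 held 24, 8, 19, 5, 15, 2, 9 and 4. In CPM the WT animals ranged from 1.05 to 7.73 with a median of 4.16, and the B3AR-Tg animals from 0.196 to 1.98 with a median of 0.759. The 8 B3AR-Tg animals lay below the WT median, 5 of them lay below every WT animal, and 6 WT animals lay above every B3AR-Tg animal. WT replicates 1 and 5, at 1.44 and 1.05 CPM, fell inside the B3AR-Tg range.

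The mean of Gdf15 was 4.30 ± 2.73 CPM in WT, against 0.963 ± 0.631 CPM in B3AR-Tg (SD, n = 8), or 4.46-fold lower in B3AR-Tg. The edgeR log2 fold change was −2.16 with a standard error of 0.44 and a 95% interval of −3.08 to −1.24 (adjusted p = 0.00911). An exact permutation test of the mean CPM, which needs no filter, gave p = 0.00218 (two-sided, n = 8 per group). Gdf15 met the count filter in 7 WT and 3 B3AR-Tg animals where 8 were needed, so it entered the test mainly through WT. It passed in each of the 16 fits that left out 1 animal (adjusted p from 0.00584 to 0.0243). It did not pass with the other-cell score as a covariate (log2 fold change −1.65, adjusted p = 0.316) or with the load marker score (−0.43, adjusted p = 0.892).

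Both of those scores moved with genotype as Gdf15 did. The load markers Nppa and Nppb, which encode natriuretic peptides, Myh7, the slow myosin heavy chain, and Acta1, skeletal alpha-actin, were all 4 lower in B3AR-Tg. Their edgeR log2 fold changes were −3.99, −1.13, −2.03 and −1.74 (adjusted p = 0.00362, 0.0223, 0.00632 and 0.0245). Nppb lost its call without WT replicate 4 (adjusted p = 0.0532) or B3AR-Tg replicate 5 (0.0507), and Acta1 without WT replicate 2 (0.0530) or B3AR-Tg replicate 5 (0.0562). The load score, the mean log2(CPM + 0.5) of these 4 genes, was 8.99 to 10.999 in WT and 6.83 to 9.10 in B3AR-Tg, and the 2 groups met only through B3AR-Tg replicate 7. The other-cell score, over fibroblast, endothelial, leukocyte and mural markers, was 2.09 to 2.69 in WT and 0.988 to 2.23 in B3AR-Tg. Genotype and load therefore cannot be told apart across all 16 animals, and the part of other cells in the Gdf15 difference was not tested apart from the values given here.

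Within WT the animals with much Gdf15 were mostly those with high load scores. WT replicates 2, 4 and 8 had the highest load scores (10.999, 10.9 and 10.8) and 7.73, 7.50 and 5.99 CPM of Gdf15, and replicate 7, with a load score of 9.59, had 5.71 CPM. Over the 8 WT animals Pearson's r was 0.77 (exact permutation p = 0.0423) and Spearman's rho 0.71 (exact permutation p = 0.0576). After Benjamini-Hochberg adjustment over the 16 relations computed, of 4 genes with 2 scores in 2 genotypes, neither passed (exact permutation, adjusted p = 0.322 and 0.278). Without the 2 animals farthest from the median load score r was 0.55. Within B3AR-Tg r was 0.22 (exact permutation p = 0.617, n = 8). Gdf15 with the other-cell score gave r = 0.61 in WT (exact permutation p = 0.121, n = 8) and −0.10 in B3AR-Tg (exact permutation p = 0.820, n = 8). Of all 16 relations, 0 passed after adjustment and 2 had an unadjusted exact permutation p for r under 0.05, the second being Atf5 with the load score in WT (r = 0.78, p = 0.0364; adjusted p = 0.322).

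**Figure D2:**
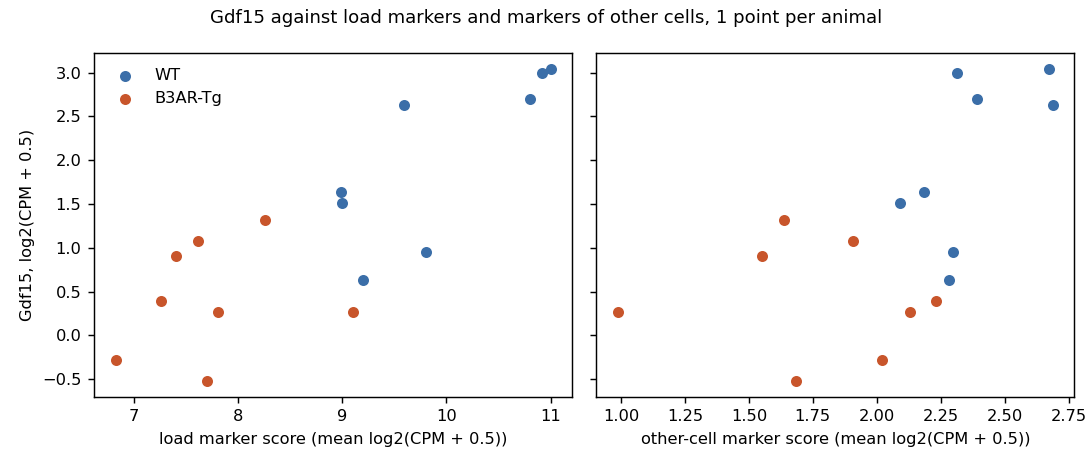
Gdf15 as log2(CPM + 0.5) against the load marker score (left) and the other-cell marker score (right), 1 point per animal, 8 WT and 8 B3AR-Tg. The WT animals with load scores of 10.8 to 10.999 had 5.99 to 7.73 CPM of Gdf15, and the B3AR-Tg animals lay at lower load scores and lower Gdf15 than these 3.

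Fgf21 encodes the other secreted factor, a metabolic hormone made mainly by the liver. It was all but absent from these libraries, with 1 count in WT replicate 2, 1 in B3AR-Tg replicate 1 and 3 in B3AR-Tg replicate 3, and 0 counts in the other 13 animals. A count of 0 allows up to 3 counts, or between 0.201 and 0.487 CPM depending on the library. All 16 libraries were at or under that floor, and a difference was not detectable at this depth (exact permutation p = 0.733, two-sided, n = 8 per group).

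The enzymes of amino acid and one-carbon synthesis were low in both genotypes. Asns, which makes asparagine, had 1 to 19 counts in WT (median 5) and 2 to 21 in B3AR-Tg (median 4.5). WT replicate 4 (19 counts) and B3AR-Tg replicate 8 (21 counts) held the highest values of their groups. The scaled ratio of summed counts, B3AR-Tg over WT, was 0.774 (95% exact binomial interval 0.515 to 1.16, counting error only), and mean CPM did not differ beyond the spread (exact permutation p = 0.601, n = 8 per group). The ratio was 1.03 without WT replicate 4 (exact permutation p = 0.946) and 0.523 without B3AR-Tg replicate 8 (exact permutation p = 0.176).

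Phgdh and Psat1 catalyse the first steps from a glycolytic intermediate to serine. Phgdh had 0 to 2 counts in WT and 0 to 3 in B3AR-Tg, at or under the floor in all 16 libraries (exact permutation p = 0.856, n = 8 per group). Its transcript matched those of 21 other annotated genes at 90% identity or more over at least 100 bases. Of these, 18 are rows of the table, 6 had any count, and they summed to 64 counts against 21 for Phgdh, so the value of Phgdh is uncertain. Psat1 had 1 to 36 counts in WT (median 6) and 2 to 18 in B3AR-Tg (median 9.5). WT replicate 2 held 36 counts and the other WT animals 8 or fewer. The scaled ratio for Psat1 was 0.805 (95% exact binomial interval 0.577 to 1.12; exact permutation p = 0.724 for mean CPM, n = 8 per group). It rested on WT replicate 2: without that animal the ratio was 1.29 (0.867 to 1.96; exact permutation p = 0.556).

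Mthfd2 encodes a mitochondrial folate enzyme that is usually low in resting adult tissue. It had 2 to 26 counts in WT (median 9) and 4 to 19 in B3AR-Tg (median 10.5), and WT replicates 4 and 8 held the most in their group, 26 and 17. The scaled ratio was 0.905 (95% exact binomial interval 0.663 to 1.24), and mean CPM did not differ beyond the spread (exact permutation p = 0.867, n = 8 per group). Without WT replicate 4 the ratio was 1.12 (exact permutation p = 0.614).

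**Figure D3:**
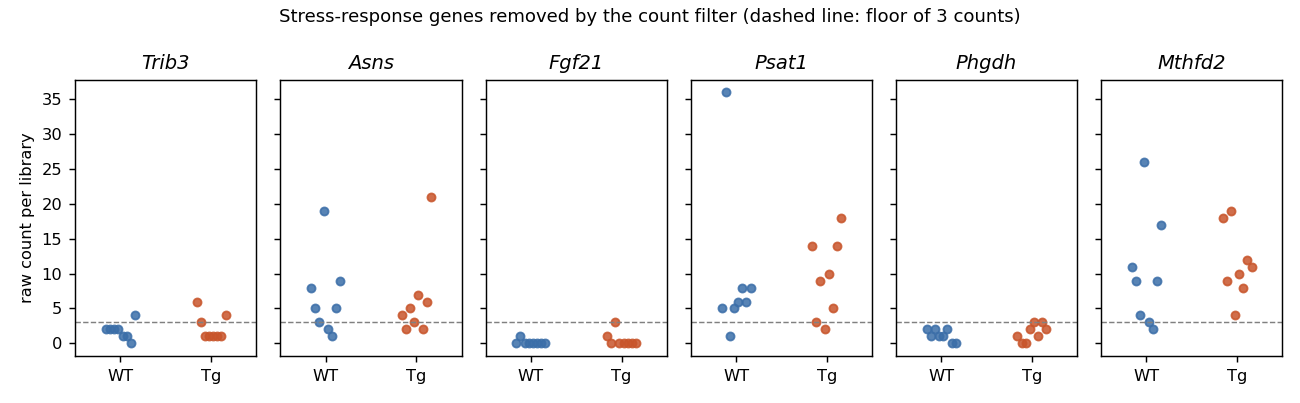
Raw counts per library of the 6 genes removed by the count filter, 8 WT and 8 B3AR-Tg (Tg) animals each; the dashed line marks the floor of 3 counts. Phgdh and Fgf21 lay at or under the floor in every library, and the highest value was 36 counts of Psat1 in WT replicate 2.

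At the RNA level the listed eIF2 genes upstream of ATF4 gave no call. RNA does not measure phosphorylation of eIF2, through which the kinases act. All 20 genes of the eIF2 list, which holds the eIF2 kinases, phosphatase subunits and eIF2 and eIF2B subunits, were tested, and 0 passed by edgeR. An unadjusted p under 0.05 was seen for 2 of the 20, a smaller share than the 19.3% of all tested genes. The list's median log2 fold change was −0.04. The 2 with the smallest p-values were Eif2a, an initiation factor distinct from the eIF2 complex (log2 fold change −0.19, edgeR adjusted p = 0.220), and Eif2s2, the beta subunit of eIF2 (−0.17, edgeR adjusted p = 0.222). DESeq2 and limma voom each also called 0 of the 20.

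The 4 kinases were all expressed. They and the other genes named here for their role, not by the rule on p-values, were chosen after their values had been seen. Eif2ak1, which senses haem and relayed mitochondrial stress, was at 20.7 ± 3.11 CPM in WT, against 21.7 ± 1.81 CPM in B3AR-Tg. Eif2ak2, the kinase of double-stranded RNA, was at 15.7 ± 2.43 and 14.9 ± 2.88 CPM. Eif2ak3, also called PERK, which senses stress of the endoplasmic reticulum, was at 2.49 ± 0.833 and 2.12 ± 0.344 CPM, and Eif2ak4, also called GCN2, which senses uncharged tRNA, at 4.11 ± 1.33 and 3.99 ± 0.902 CPM. The edgeR adjusted p-values of these kinases were between 0.603 and 0.960. Ppp1r15a, the inducible phosphatase subunit that ends the response, was at 18.04 to 47.0 CPM in WT (median 23.1), against 19.4 to 34.9 CPM in B3AR-Tg (median 31.3; log2 fold change 0.16, edgeR adjusted p = 0.643). Without WT replicate 8, which held the 47.0 CPM, the log2 fold change was 0.34 (edgeR adjusted p = 0.152).

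Among other stress-induced targets of ATF4 or CHOP, 2 of 16 tested genes were lower in B3AR-Tg and 0 were higher. Over all tested genes 4.91% were called. An unadjusted edgeR p under 0.05 was reached by 7 of the 16, against 19.3% of all tested genes, and the median was −0.02. Ero1a, an oxidase of the endoplasmic reticulum that helps disulphide formation, was at 18.6 to 43.5 CPM in WT (median 21.1), against 12.2 to 20.8 CPM in B3AR-Tg (median 15.96). Its groups overlapped, although 7 B3AR-Tg animals lay below every WT animal (log2 fold change −0.60, standard error 0.16, edgeR adjusted p = 0.0340). Eif4ebp1, a repressor of translation initiation, was at 39.2 to 59.6 CPM in WT, against 30.8 to 40.4 CPM in B3AR-Tg, and 7 WT animals lay above every B3AR-Tg animal (−0.38, standard error 0.10, edgeR adjusted p = 0.0362). For both genes WT replicates 4 and 8 held the highest values, at 28.7 and 43.5 CPM of Ero1a and 59.6 and 59.0 CPM of Eif4ebp1.

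Both calls were close to the threshold. Ero1a did not pass without WT replicate 4 or without B3AR-Tg replicate 2, 5, 6 or 8, with edgeR adjusted p-values of 0.0539 to 0.0775. Eif4ebp1 did not pass without WT replicate 4, 7 or 8 or B3AR-Tg replicate 4, 5, 6, 7 or 8 (edgeR adjusted p = 0.0506 to 0.0865). The 2 genes also lost their calls with library size as the only scaling (adjusted p = 0.0880 and 0.139), and Eif4ebp1 with no low-count filter (−0.36, adjusted p = 0.0661).

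Other targets in that group had values that went in either direction without passing by edgeR. Gadd45a, a growth arrest gene, was at 18.5 ± 5.15 CPM in WT, against 26.6 ± 6.60 CPM in B3AR-Tg (log2 fold change 0.52, edgeR adjusted p = 0.0755). Bcl2l11, which encodes the cell death protein BIM, was at 6.76 ± 3.36 and 11.4 ± 3.95 CPM (0.75, edgeR adjusted p = 0.0926). DESeq2 called both higher (adjusted p = 0.0386 and 0.0432) beside the 2 lower genes, limma voom called Bcl2l11 (0.0247), and with library size as the only scaling edgeR called Gadd45a (0.0399). By edgeR Gadd45a also passed without WT replicate 5 (0.0218) or B3AR-Tg replicate 7 (0.0249), and Bcl2l11 without WT replicate 3 (0.00992) or B3AR-Tg replicate 3 (0.0449). With the load score as a covariate both signs turned, to −0.22 and −0.09 (edgeR adjusted p = 0.824 and 0.971). Atf3, a transcription factor induced by ATF4 and also by the cell's immediate early response, was at 80.1 to 185 CPM in WT, against 104 to 340 CPM in B3AR-Tg (log2 fold change 0.60, edgeR adjusted p = 0.109; 0.0388 without B3AR-Tg replicate 7). The immediate early genes, which respond to cell isolation, summed to 262 to 369 CPM in WT, against 264 to 574 CPM in B3AR-Tg. Of these 8 genes 6 had a higher and 2 a lower estimate. Past the threshold 1 was higher, where 2.03% of all tested genes were called higher. The part of the immediate early genes in the Atf3 values was not tested. Ddit4, an inhibitor of mTORC1, was at 1.02 to 8.45 CPM in WT, against 0.883 to 2.60 CPM in B3AR-Tg (−1.12, edgeR adjusted p = 0.103). Sesn2, a leucine sensor, was at 1.65 ± 0.356 and 1.45 ± 0.489 CPM (−0.19, edgeR adjusted p = 0.721).

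Of the serine, one-carbon, proline and alanine synthesis enzymes, 12 of 16 were tested, 1 was lower and 0 were higher, where 4.91% of all tested genes were called. An unadjusted edgeR p under 0.05 was reached by 8 of the 12, against 19.3% of all tested genes. Shmt1, the cytosolic serine hydroxymethyltransferase, was at 7.82 to 22.5 CPM in WT (median 17.1), against 7.31 to 13.6 CPM in B3AR-Tg (median 10.8). WT replicate 2, at 7.82 CPM, was the one WT animal inside the B3AR-Tg range (log2 fold change −0.67, standard error 0.17, edgeR adjusted p = 0.0264). The call was lost without WT replicate 4, WT replicate 8 or B3AR-Tg replicate 5 (edgeR adjusted p = 0.0525 to 0.0616). The mitochondrial counterpart Shmt2 was at 14.6 ± 2.06 CPM in WT, against 17.2 ± 2.42 CPM in B3AR-Tg (0.24, edgeR adjusted p = 0.232). Aldh1l2, a mitochondrial folate dehydrogenase, was at 4.03 ± 2.16 and 7.10 ± 2.13 CPM (0.84, edgeR adjusted p = 0.106; 0.0478 without WT replicate 3, and 0.0356 by limma voom). Psph, which completes serine synthesis after Psat1, was at 3.12 ± 0.676 and 2.69 ± 0.594 CPM (−0.23, edgeR adjusted p = 0.528).

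Amino acid transporters gave 1 call among 8 tested genes, and it was higher in B3AR-Tg. Of all tested genes 4.91% were called in either direction, and 2.03% of all tested genes were called higher. An unadjusted edgeR p under 0.05 was seen for 2 of the 8, beside 19.3% of all tested genes. Slc7a1, a transporter of arginine and lysine, was at 18.8 to 40.5 CPM in WT (median 27.8), against 26.8 to 60.8 CPM in B3AR-Tg (median 46.9). Above every WT animal lay 6 B3AR-Tg animals (log2 fold change 0.72, standard error 0.16, edgeR adjusted p = 0.0131). It passed in each of the 16 fits that left out 1 animal (edgeR adjusted p = 0.00392 to 0.0321). It did not pass with the other-cell score (0.97, adjusted p = 0.0665) or the load score (0.72, adjusted p = 0.486) as a covariate, nor did Ero1a (adjusted p = 0.417 and 0.857), Eif4ebp1 (0.174 and 0.813) or Shmt1 (0.107 and 0.415). The log2 fold changes with the other-cell score were −0.45 for Ero1a, −0.48 for Eif4ebp1 and −0.98 for Shmt1, and with the load score −0.23, −0.19 and −0.93. Thus Shmt1 and Slc7a1 were about as large or larger with either score, Eif4ebp1 was larger with the other-cell score, and Ero1a and Eif4ebp1 were smaller with the load score. The cystine transporter Slc7a11 was at 0.925 ± 0.534 CPM in WT, against 1.31 ± 0.518 CPM in B3AR-Tg (0.49, edgeR adjusted p = 0.495).

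The cytosolic aminoacyl-tRNA synthetases, many of which are ATF4 targets, were all 20 tested and 0 passed by edgeR, by DESeq2 or by limma voom. With 1 of 20 at an unadjusted edgeR p under 0.05 their share was below the 19.3% of all tested genes. Their log2 fold changes lay between −0.20 and 0.28 with a median of −0.05. Eprs, which charges glutamate and proline, was at 204 ± 22.8 CPM in WT, against 177 ± 12.5 CPM in B3AR-Tg (edgeR adjusted p = 0.138). Cars, for cysteine, was at 10.5 ± 2.45 and 12.8 ± 2.15 CPM (edgeR adjusted p = 0.260).

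The unfolded protein response of the endoplasmic reticulum gave 0 calls by edgeR among 23 tested genes, with a median of −0.01. An unadjusted p under 0.05 was seen for 2 of the 23, a smaller share than over all tested genes. Hspa5, the chaperone BiP, was at 484 ± 93.2 CPM in WT, against 494 ± 67.6 CPM in B3AR-Tg (log2 fold change 0.03, edgeR adjusted p = 0.919). Wfs1, a membrane protein of the endoplasmic reticulum, was at 26.3 ± 3.08 and 33.2 ± 5.01 CPM (0.33, edgeR adjusted p = 0.0553), and DESeq2 called it (adjusted p = 0.0334). Without WT replicate 2, B3AR-Tg replicate 2 or B3AR-Tg replicate 8 its edgeR adjusted p was 0.0443 to 0.0479. Manf, a secreted stress protein, was at 17.1 ± 4.31 and 13.1 ± 2.17 CPM (−0.38, edgeR adjusted p = 0.148). With the load score as a covariate Manf was at −1.10 and passed (edgeR adjusted p = 0.0145). The groups met in load score only through B3AR-Tg replicate 7, so genotype and load cannot be told apart in that fit.

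Of the mitochondrial stress relay and chaperones, 12 were tested and 0 passed by edgeR, with 2 at an unadjusted p under 0.05, a share near that of all tested genes. The list's median log2 fold change was 0.12, as was that of the 8 cardiac myocyte markers, beside 0.01 over all tested genes. Oma1, the protease that cleaves DELE1 when mitochondria fail, was at 18.7 to 28.8 CPM in WT, against 24.9 to 35.9 CPM in B3AR-Tg (log2 fold change 0.33, edgeR adjusted p = 0.0742). DESeq2 called it (adjusted p = 0.0432), as did edgeR without WT replicate 6 or 7 (adjusted p = 0.0472 and 0.0447) or with library size as the only scaling (0.0392). Dele1, which carries that signal to Eif2ak1, was at 81.4 ± 10.95 and 91.4 ± 6.88 CPM (0.17, edgeR adjusted p = 0.263). Endog, a mitochondrial nuclease, was at 25.0 ± 6.09 and 30.9 ± 7.00 CPM (0.32, edgeR adjusted p = 0.250).

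**Figure D4:**
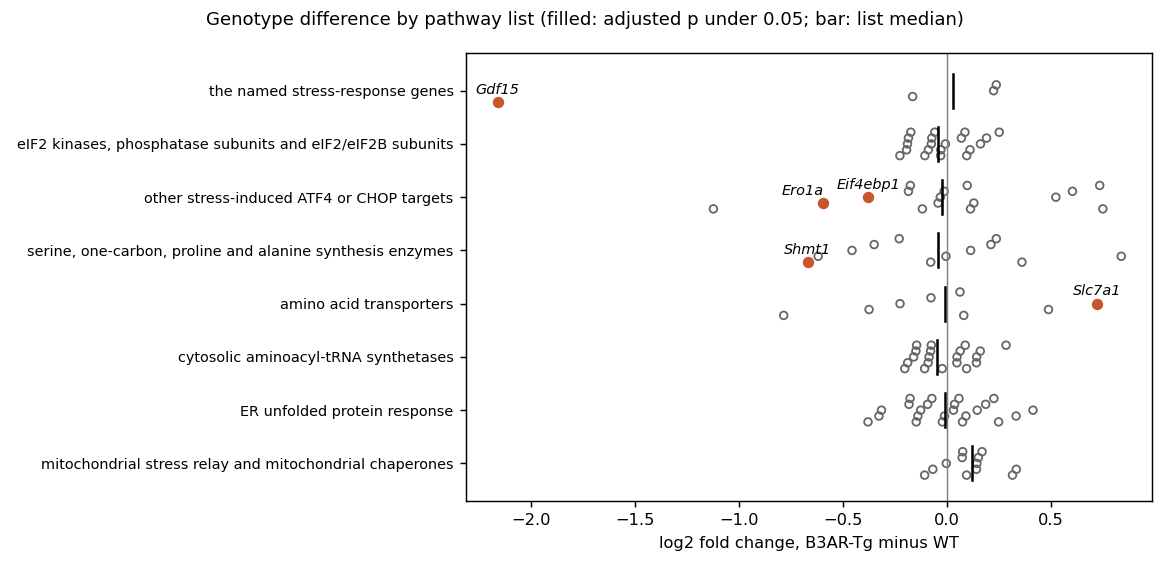
Log2 fold change (B3AR-Tg minus WT) of every tested gene in the 10-gene set and in 7 lists of the pathway; filled points have an edgeR adjusted p under 0.05 and black bars mark list medians. Gdf15 lies at −2.16, Slc7a1 is the filled point above 0, and list medians lie between −0.05 and 0.12.

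Of the pairs among the 4 tested genes, 0 of 6 passed by Pearson's r and 1 passed by rank, Atf4 with Atf5. Deviations of log2(CPM + 0.5) from the genotype mean were compared over 16 animals for all 6 pairs. Atf4 and Atf5 gave Pearson's r = 0.61 (permutation p = 0.0169, adjusted 0.101 over the 6 pairs) and Spearman's rho = 0.74 (permutation p = 0.00258, adjusted 0.0155). Within WT r was 0.74 and within B3AR-Tg 0.57, and without the 2 animals farthest in Atf4 it was 0.48. Atf4 and Ddit3 gave r = 0.20 (permutation p = 0.506, adjusted 0.608), with −0.21 within WT and 0.41 within B3AR-Tg, and rho = 0.09 (permutation p = 0.756, adjusted 0.756). Atf4 and Gdf15 gave r = 0.41 (permutation p = 0.120, adjusted 0.360) and rho = 0.41 (permutation p = 0.118, adjusted 0.231). The other 3 pairs had r between −0.30 and 0.20. Each shuffle, 100000 in all, kept animals within their genotype.

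**Figure D5:**
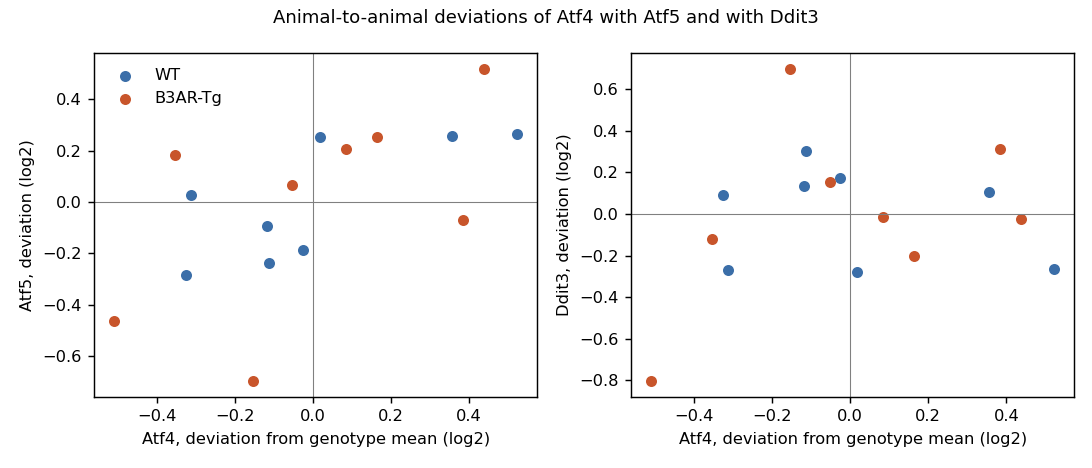
Deviation of each animal from its genotype mean on the log2 scale, Atf4 against Atf5 (left) and Atf4 against Ddit3 (right), 8 WT and 8 B3AR-Tg animals. Animals high in Atf4 tended to be high in Atf5 (r = 0.61), and the points for Ddit3 scatter more widely (r = 0.20).

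The genes whose deviations were most like each of these 4, among all tested genes and over the same 16 animals, were taken as a description. For Atf4 they were Arpc1a (r = 0.83) and Nt5e (0.81). For Ddit3 they were Decr1 (0.87) and Cdc40 (0.86), for Gdf15 Spire1 (0.88) and Cipc (0.85), and for Atf5 Spry1 (0.84) and Tinagl1 (0.83). None of the other stress-response genes was among these 8 nearest profiles. With so few places per gene among 10945 tested genes, that absence was likely whether or not these genes vary together, so it cannot decide this. Atf4 and Atf5, with r = 0.61 and Spearman's rho = 0.74, were not in each other's lists either. The r values listed are the largest picked from all tested genes, and how high r would come by chance was not tested.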

How the data were processed

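The authors deposited 1 gene-level table of raw counts in whole numbers, whose 16 columns each matched 1 animal by the name in its title (0 columns were left without a sample). Per the submitters' processing notes Salmon and the build GRCm39 were used, with no version or role given. Whether the whole numbers are rounded Salmon estimates, and the annotation release, strand setting and filters, are not given in the sources used here. GENCODE M21 and RefSeq (both on GRCm38) served only for lengths, overlaps, transcript similarity (BLAST 2.17.0) and promoter windows, so no coordinate was taken from the authors' build.

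Counts were filtered with filterByExpr (minimum count 10, minimum total 15), which left 10945 genes, scaled by TMM and tested with edgeR 4.0.16 in R 4.3.3 (glmQLFit and glmQLFTest, genotype only). The standard error is the log2 fold change divided by the square root of F. Genes below the filter were compared by exact permutation. Correlations used log2(CPM + 0.5). The floor was fixed at 3 counts, and depth, 5985335 to 14365864 counts per library, sets its value in CPM. Alternatives covered scaling, filters, DESeq2 1.42.0, limma 3.58.1, covariates, a replicate block and leaving out each animal. For the genes below the filter, leaving out each animal was added after seeing the data.

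The 10 genes, the lists and the tests were chosen with earlier results of these data known. Named genes are the 10, up to 4 per list with the smallest p-values past the threshold or else the 2 smallest, the load markers, Adgrb3 and the 2 most similar profiles per tested gene; genes named for their role were added.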

Additional observations from a re-analysis of the deposited data

Results flagged for a closer look

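Each group of 8 animals was searched, for 36 named genes on log2(CPM + 0.5), for an extreme animal, high or low, that stood apart: its distance to the nearest other, as a share of the range, exceeded Dixon's 95% critical value. Among the 72 groups 7 had such an animal, where chance gives about 1 in 20, or 3.6. Gdf15, Atf4, Ddit3 and Atf5 had 0. Dele1 was high in WT replicate 7 (gap 0.589 of the range, 106 CPM against 67.6 to 81.4 CPM in the others). Eif2ak2 was high in B3AR-Tg replicate 6 (0.586, 21.5 against 12.5 to 15.7 CPM). Eprs was low in B3AR-Tg replicate 4 (0.643, 149 against 174 to 189 CPM), the library with the fewest counts. Ppp1r15a was high in WT replicate 8 (0.552, 47.0 against 18.04 to 27.8 CPM), the WT animal that was also highest in Atf4. Psph was low in B3AR-Tg replicate 3 (0.551, 1.57 against 2.57 to 3.74 CPM, 15 counts). Shmt1 was low in WT replicate 2 (0.530, 7.82 against 13.8 to 22.5 CPM). Slc7a11 was low in B3AR-Tg replicate 2 (0.580, 0.265 against 1.00 to 1.96 CPM), at the floor of 3 counts.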

How the results depend on the processing

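Over 36 named tested genes and up to 27 alternatives each, 880 of 966 values kept their sign and side of the threshold. The count filter was rerun in each fit that left out 1 animal. A gene counted in such a fit therefore need not be among those tested in the main fit. Leaving out 1 animal left the 10-gene count at 1 in every fit (1 to 1), and gave 272 to 675 genes over the whole table against 537, lowest without WT replicate 4 (272), B3AR-Tg replicate 5 (277) and B3AR-Tg replicate 8 (345). It gave 0 to 3 other targets (0 without WT replicate 4 or B3AR-Tg replicate 5, 6 or 8, and 1 without WT replicate 7 or 8 or B3AR-Tg replicate 2 or 4), 0 to 3 synthesis enzymes (3 without WT replicate 3, 2 without WT replicate 1, 0 without WT replicate 4 or 8 or B3AR-Tg replicate 5), 1 to 2 transporters (2 without any of WT replicates 1, 3, 5, 6 and 7 and of the 8 B3AR-Tg animals), 0 to 1 genes of the unfolded protein response (1 without WT replicate 2 or B3AR-Tg replicate 2 or 8) and 0 to 1 of the mitochondrial relay (1 without WT replicate 6 or 7).

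The replicate block, pairing animals by the number in their titles, gave 230 genes in all and 0 of the 10 genes, with Gdf15 at −2.03 (edgeR adjusted p = 0.0585), and 0 other targets, 0 synthesis enzymes and 0 transporters. Deviations of same-numbered animals correlated at −0.25 to 0.10 and 0 of 8 WT animals correlated best with their own number. No strong shared signal by number was seen, which cannot show that the animals were unpaired. The other-cell covariate left 11 genes and the load covariate 7, each with 0 of the 10 genes, 0 other targets, 0 synthesis enzymes and 0 transporters. The load covariate called 1 gene of the unfolded protein response, Manf. A minimum count of 30 removed Gdf15 and so left 0 of the 10 genes. Over the whole table the settings other than leaving out 1 animal called 7 to 804 genes, against 537 in the main fit. Because this total differed between settings, the list counts that follow are values only and not results about the lists. Library size alone gave 1 other target, Gadd45a, and 1 mitochondrial gene; no low-count filter gave 2 transporters; DESeq2 gave 4 other targets, 1 gene of the unfolded protein response and 1 mitochondrial gene; limma voom gave 2 synthesis enzymes. The block ended the other called pathway genes too, Ero1a, Eif4ebp1, Shmt1 and Slc7a1 (adjusted p = 0.0633 to 0.126), at log2 fold changes of −0.55, −0.36, −0.65 and 0.72 that were close to those without the block. Apart from the filter, the cause was not tested.

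Signs turned for Ddit3 (−0.19 with the other-cell covariate, −0.40 with load), Atf5 (0.00296 with load), Hspa5 (−0.14 with other cells, −0.53 with load, −0.0177 to 0.0924 over left-out animals), Eif2ak4 (0.0468 by library size, 0.00530 by voom, −0.132 to 0.0715 over left-out animals), and with load for Eif2ak2 (0.14), Atf3 (−0.34), Shmt2 (−0.0540), Aldh1l2 (−0.51), Gadd45a (−0.22), Bcl2l11 (−0.0870), Nppa (0.0918), Myh7 (0.37) and Acta1 (0.00268), the last 3 being part of that score. The Mthfd2 difference was −0.0503 CPM and 0.0454 on the log2 scale. Leaving out 1 animal, an alternative chosen after seeing the data, turned the sign of the CPM difference in each gene below the filter: −0.0270 to 0.0326 for Trib3, −0.288 to 0.0178 for Asns, −0.00106 to 0.0475 for Fgf21, −0.303 to 0.117 for Psat1, −0.0153 to 0.0332 for Phgdh and −0.188 to 0.129 for Mthfd2. The exact permutation p was 0.176 or more in each of these. The count of 0 correlated pairs by Pearson's r held with a pseudocount of 2 and by library size.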

Other observations

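Some genes of the pathway lists fell below the count filter yet held unequal counts, and they were picked here after their values had been seen. In edgeR fitted with no low-count filter, Slc1a5, a glutamine transporter, had an adjusted p of 0.0160 and a log2 fold change of −1.91, lower in B3AR-Tg, with 5 to 50 counts in WT and 1 to 12 in B3AR-Tg, and 7 WT animals lay above every B3AR-Tg animal. Fgf23, a hormone of phosphate balance, had 0 counts in all 8 B3AR-Tg animals and 0 to 15 in WT (edgeR without a filter, adjusted p = 0.0343), with 15 of its 24 counts in WT replicate 8. Mthfd1l, a mitochondrial formate enzyme, had 2 to 11 counts in WT and 0 to 5 in B3AR-Tg (edgeR without a filter, −1.89, adjusted p = 0.0522). Nupr1, a stress-induced nuclear protein, had 0 to 32 counts in WT and 0 to 5 in B3AR-Tg (edgeR without a filter, −2.40, adjusted p = 0.0760).

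WT replicate 8 held the highest WT value of Atf4, Atf5, Ero1a, Ppp1r15a, Eif2ak2, Cars, Ddit4, Slc7a11, Trib3, Nupr1, Mthfd1l, Fgf23 and Nppa, and WT replicate 4 that of Asns, Mthfd2, Eif4ebp1, Eprs, Slc1a5 and Nppb. WT replicate 2 held the highest WT value of Gdf15, Psat1, Wfs1, Myh7 and Acta1, and of Fgf21 with 1 count. The other genes named for the pathway had their highest WT values in the remaining WT animals. WT replicate 7 held those of Atf3, Dele1, Eif2ak1, Endog and Oma1. WT replicate 6 held those of Ddit3, Eif2a, Eif2ak3, Hspa5 and Phgdh. WT replicate 3 held those of Aldh1l2, Bcl2l11, Eif2ak4, Manf and Slc7a1. In WT replicate 5 lay those of Gadd45a, Psph, Shmt1 and Shmt2, and in WT replicate 1 those of Eif2s2 and Sesn2.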
